A study of Mus musculus with 9 samples.

Results

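Interleukins and their receptors were examined in cultures of mouse retinal ganglion cells (RGCs), the neurons that carry visual signals from the retina to the brain. The members were the genes whose symbol begins with Il and a digit, without Il6, Il6ra and Il6st, which gave 79 of the 22322 genes in the deposited table. They comprised 36 ligands, 39 receptor chains, 3 antagonists (Il1rn, Il18bp and Il1f5) and Il4i1. The receptor chains include the soluble receptor Il22ra2 and the decoy Il13ra2. Il4i1 is a secreted amino acid oxidase that carries the interleukin name only through its induction by interleukin 4. RNA was sequenced in bulk from 9 libraries, 3 from each of 3 groups. Normal RGCs were purchased wild-type mouse cells kept in high glucose medium with serum, and aging RGCs were the same cells treated with D-galactose, a sugar used to induce senescence in culture. Aging RGCs + USCs medium were D-galactose treated cells kept in medium conditioned by USCs, stem cells grown from human urine. The labels give wild-type genotype for every library, and neither an age nor a sex of the animals. The study's methods describe the 3 libraries of a group as replicated wells, so p-values measure the spread between wells of the purchased cells. No library of aging RGCs in USC culture medium that had not been on USCs was analysed here, so products released by USCs and the culture medium itself cannot be told apart.

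Interleukins are secreted signals, and most act through receptors built from 2 or more chains, so that a full response generally needs all chains of a complex in the same cell. Receptors of the IL-1 family (IL-1, IL-18, IL-33 and IL-36) and of IL-17 act through adaptor proteins on NF-kB and MAP kinases, while most other interleukin receptors act through JAK kinases and STAT factors. In the retina, interleukins are known mainly as products of microglia, Müller glia and infiltrating immune cells, and neurons and glia carry receptors for several of them.

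Expected counts of a library, which estimate the number of reads from each gene, summed to 18189616 to 22342288. A count of 3, taken here as the floor of detection, corresponded to 0.134 to 0.165 CPM (counts scaled to a fixed library total). Markers of the labelled cell type were mixed. Of 10 RGC markers, Pou4f2 was listed at 0 throughout, and Pou4f2, Thy1, Sncg and Slc17a6 stayed under 10 counts in every library. The summed FPKM (reads scaled by transcript length and library size) of the 10 ranged over 149.2 to 156.7 for the normal group, 127.4 to 128.7 for the aging group and 92.99 to 96.25 for the medium group. Nrn1 made up the larger part of these sums, with 90.8, 83.2 and 49 FPKM in the 3 groups. Of the 6 RGC markers tested, 5 fell in aging against normal RGCs, while with USCs medium against aging RGCs 2 fell and Tubb3, a neuronal tubulin, rose from 1.41 to 10.9 FPKM. The 7 epithelial markers summed to 636 to 710.9 FPKM over all libraries, nearly all of it from the keratin genes Krt8, Krt18 and Krt19. Epcam had a mean of 1.04 FPKM, and Cdh1, Krt5 and Krt14 stayed under 10 counts in every library. The 6 mesenchymal markers summed to 781.8 to 942 FPKM. Vim alone had 797, 930 and 865 FPKM in the normal, aging and medium groups, and Col1a2 and Thy1 stayed under 10 counts. All 10 markers of T, B and NK cells and all 5 mast cell markers stayed under 10 counts in every library. Of 5 Müller glia and astrocyte markers, Rlbp1, Gfap, Aqp4 and Slc1a3 did so too. The fifth, Glul, had 39.1, 36 and 46.3 FPKM in the normal, aging and medium groups, and rose with USCs medium against aging RGCs. The 12 macrophage and microglia markers summed to 46.03 to 56.27 FPKM for the normal group, 35.97 to 40.31 for the aging group and 23.75 to 41.53 for the medium group, and C1qa and Cx3cr1 were under 10 counts in every library. Cd68 made up the larger part of these sums, with 32.3, 34.1 and 24.4 FPKM in the normal, aging and medium groups. Of the 9 macrophage markers tested, 7 fell in aging against normal RGCs, where 23% of all genes fell. With USCs medium 2 rose and 1 fell against aging RGCs, where 27.1% of all genes rose and 26% fell. Against normal RGCs 6 fell, where 29.9% of all genes fell. Some of these markers were high in medium replicate 3 alone. Adgre1 had 2, 2 and 32 counts in medium replicates 1 to 3, and C1qb had 0, 0 and 15. Whether fewer cells of a type or less RNA per cell lie behind such a difference cannot be told apart in bulk RNA.

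Most of the 79 genes were scarce. A total of 22 had no count in any library, among them 16 of the 36 ligands (Il2, Il3, Il4, Il9, Il13, Il17a, Il22 and others), 5 of the 39 receptor chains (Il2ra, Il23r, Il22ra2, Il1rapl1 and Il1rapl2) and the antagonist Il1f5. A further 22, of which 9 were ligands and 13 receptor chains, never reached 10 counts. Il2rb, Il7r, Il27 and Il23a, whose highest library held 10 to 14 counts, were not tested either. At least 10 counts in every library were found for 7 ligands, 15 receptor chains and 2 antagonists, and 31 genes passed the low-count filter of the test (9 ligands, 19 receptor chains, Il1rn, Il18bp and Il4i1).

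Levels were compared between genes as FPKM, which accounts for transcript length. The most abundant ligand was Il18, an IL-1 family cytokine stored as a precursor, with a mean of 10.3 FPKM over the 9 libraries. It was followed by Il34, a ligand of the CSF-1 receptor, at 8.94 FPKM, Il11, a gp130 cytokine, at 4.15, Il24, an IL-10 family cytokine, at 3.17, and Il7, a lymphocyte growth factor, at 1.06. These ranks did not hold in every group. Il11 was above Il24 in normal RGCs (means of 6.57 against 1.29 FPKM) and in aging RGCs (3.98 against 1.95 FPKM). With USCs medium the order was reversed, with Il24 at 6.79, 6.69 and 5.27 FPKM and Il11 at 1.54, 1.64 and 2.51 FPKM. Il18 and Il34 also exchanged ranks. Il18 was higher than Il34 in normal RGCs (11.4 ± 0.86 against 9.1 ± 0.276 FPKM, SD, n = 3) and lower with USCs medium (7.42 ± 1.31 against 8.75 ± 0.52 FPKM), where the 2 genes overlapped. The means of Il7, Il1a and Il33 over the 9 libraries were close, at 1.06, 1.04 and 0.976 FPKM, but the place of Il33 changed by group. Il33 lay below every Il7 and Il1a value of the same group in normal RGCs (0.61, 0.61 and 0.14 FPKM) and aging RGCs (0.56, 0.49 and 0.4 FPKM). With USCs medium it lay above all of them (2.05, 2.03 and 1.89 FPKM). Il7 and Il1a overlapped in normal and in aging RGCs.

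The receptor chains reached higher levels than the ligands. Il13ra1, the binding chain for IL-13, was the most abundant with a mean of 49.1 FPKM. Il1r1, the signalling IL-1 receptor, and Il18rap, the accessory chain of the IL-18 receptor, followed at 26 and 25.8 FPKM. Their order differed by group. In normal RGCs Il1r1 was higher, at 26.95, 25.37 and 27 FPKM against 24.39, 24.05 and 22.91 FPKM for Il18rap. In aging RGCs Il1r1 was lower, at 23.68, 23.33 and 23.17 FPKM against 24.95, 24.92 and 25.02 FPKM. With USCs medium the 2 genes overlapped. Il17rc, a chain of the IL-17 receptor, had 14.9 FPKM, a mean raised by a single value of 30.28 FPKM in medium replicate 2. Il10rb, the shared chain of IL-10 and IL-22 receptors, had 13 FPKM.

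**Figure D1:**
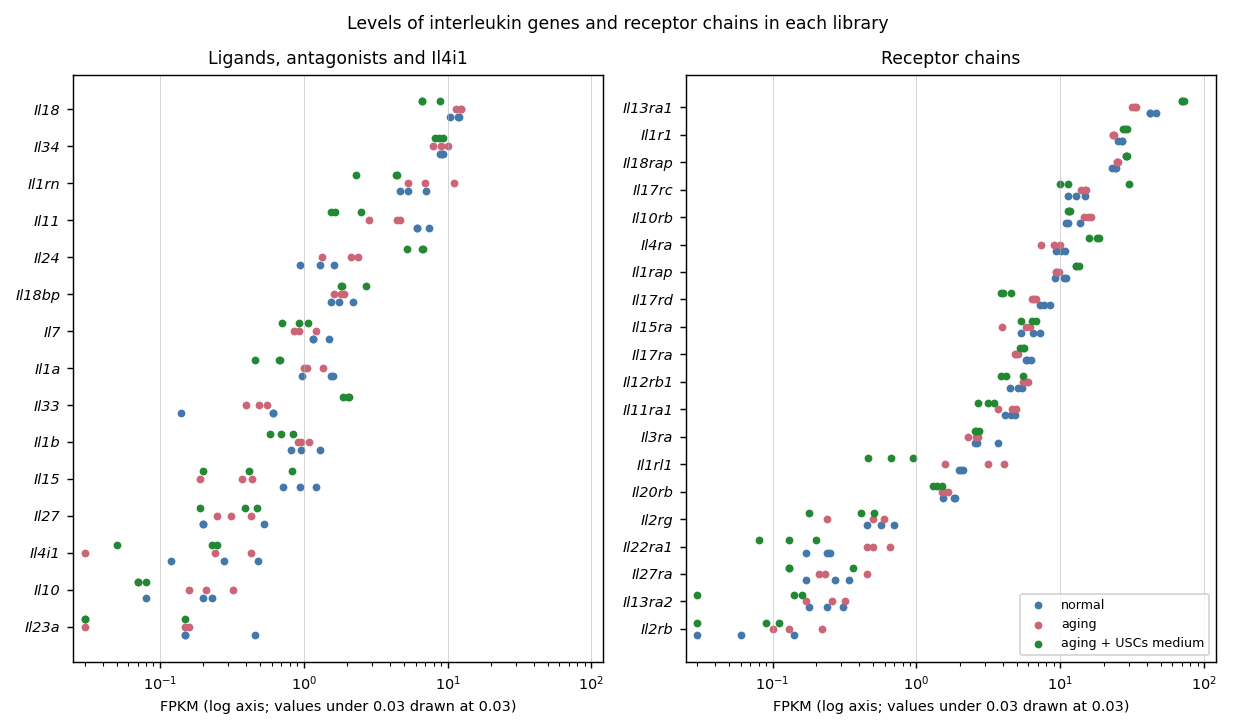
FPKM of interleukin genes and receptor chains with a mean of at least 0.1 FPKM, on a log axis, with 1 point for each of the 9 libraries coloured by group. Il13ra1 is the rightmost receptor chain, at 43.5 ± 2.35 FPKM in normal RGCs and 71.1 ± 1.34 FPKM with USCs medium, and ligands lie further left with Il18 and Il34 at the top.

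In all, 3 comparisons were made with the quasi-likelihood test of edgeR, and a gene passed at a Benjamini-Hochberg adjusted p under 0.05 over the 12145 genes tested. Aging against normal RGCs asked what D-galactose changed. Of 31 members tested, 16 passed (7 higher and 9 lower), a share of 51.6% beside 46.5% of all genes tested (23.6% higher and 23% lower). The 2 groups did not overlap for 16 members, beside 53% of all genes. With limma on log2(FPKM + 1) in place of edgeR on counts, 7 of the 31 members passed, 2 higher and 5 lower. Of all 12145 genes, 2110 were higher and 2548 lower at this setting. Among receptor chains, 12 of 19 passed on counts (5 higher and 7 lower). Among ligands, 3 of 9 passed (1 higher and 2 lower). A change of at least 2-fold that passed was found for Il15, which fell, and Il22ra1, which rose, beside 2.65% of all genes (1.09% higher and 1.56% lower). The median log2 fold change was -0.04 for ligands and -0.09 for receptor chains, beside 0.00 for all genes.

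Aging RGCs + USCs medium against aging RGCs asked what the conditioned medium changed in D-galactose treated cells. Of the 31 members, 19 passed (9 higher and 10 lower), or 61.3% beside 53.1% of all genes (27.1% higher and 26% lower). Groups did not overlap for 21 members, beside 59.8% of all genes. In receptor chains 13 of 19 passed (7 higher and 6 lower), and in ligands 5 of 9 (2 higher and 3 lower). Changes of at least 2-fold were found for 7 members, beside 5.44% of all genes (1.24% higher and 4.21% lower). Il33, Il24, Il13ra1 and Il4ra rose, and Il22ra1, Il1rl1 and Il1rn fell. The median size of the log2 fold change, without regard to sign, was 0.61 for ligands and 0.43 for receptor chains, beside 0.21 for all genes. These sets were not matched for level, and low counts widen fold changes, so no stronger response of ligands is read from the medians. The medium group against normal RGCs gave 15 of 31 members (7 higher and 8 lower), or 48.4% beside 60.5% of all genes (30.6% higher and 29.9% lower). Groups did not overlap for 17 members, beside 63.8% of all genes. At least 2-fold changes were found for 5 members, beside 6.72% of all genes (1.47% higher and 5.24% lower). All 5 were ligands, with Il33 and Il24 higher and Il11, Il15 and Il1a lower. These comparisons share libraries, so their values are given side by side and their overlap is not read as a result.

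**Figure D2:**
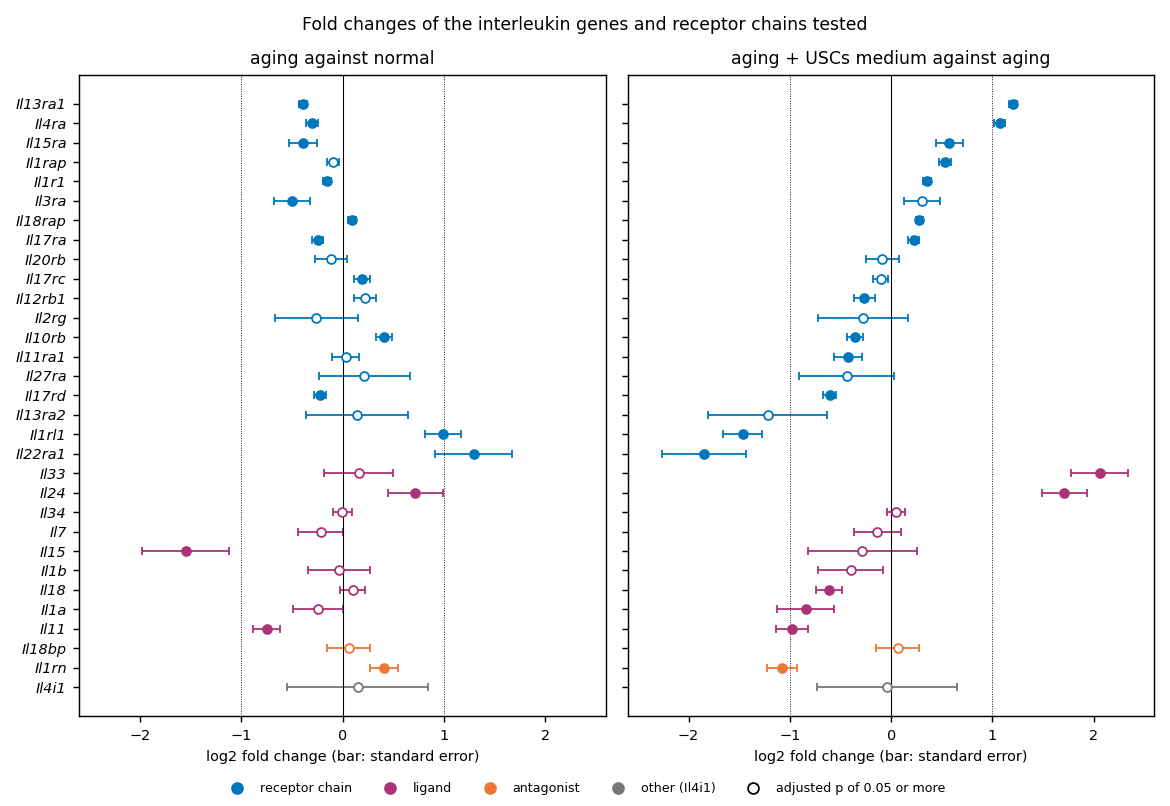
Log2 fold change of the 31 members tested in aging against normal RGCs and in aging RGCs + USCs medium against aging RGCs, with the standard error as a bar and open points for an edgeR adjusted p of 0.05 or more. Dotted lines mark 2-fold changes, and in the right panel Il33, Il24, Il13ra1 and Il4ra lie beyond the upper line and Il22ra1, Il1rl1 and Il1rn beyond the lower one.

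Promoters are shown for members that changed at least 2-fold in a comparison. Windows of 250 bases before each RefSeq transcription start (GRCm38.p6) were available for 62 members. They were searched on both strands for the AP-1 motif TGANTCA, the STAT motif TTCNNNGAA and an NF-kB motif of GGGA and CC with any 4 bases between them. AP-1 letters were present in 13 of the 62 members and in 16.9% of their 77 windows, beside 6.75% of all 32851 windows of that length. STAT letters were in 10.4% of member windows beside 7.02%, and NF-kB letters in 18.2% beside 17.6%. Of the 10 members changed at least 2-fold in any comparison, 8 had a window. AP-1 letters were found in 4 of the 8, which were Il11, Il1a, Il1rn and Il22ra1. The other 4, Il33, Il13ra1, Il4ra and Il1rl1, held none. NF-kB letters were in Il13ra1, Il1rn and Il22ra1, and STAT letters in none of the 8. Il11 has 2 windows and Il1rn has 3, and in both 1 of them holds the match. The 4 windows with AP-1 letters follow, with the match in capitals, and the last base of each is the one before the start.
Il11, chr7:4778142-4778391, minus strand, inside the gene upstream of an internal start: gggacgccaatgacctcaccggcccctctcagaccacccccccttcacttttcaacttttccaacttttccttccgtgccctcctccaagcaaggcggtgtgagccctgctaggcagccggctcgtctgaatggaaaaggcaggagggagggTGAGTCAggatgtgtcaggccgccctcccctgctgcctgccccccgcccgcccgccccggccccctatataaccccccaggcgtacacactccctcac
Il1a, chr2:129309973-129310222, minus strand: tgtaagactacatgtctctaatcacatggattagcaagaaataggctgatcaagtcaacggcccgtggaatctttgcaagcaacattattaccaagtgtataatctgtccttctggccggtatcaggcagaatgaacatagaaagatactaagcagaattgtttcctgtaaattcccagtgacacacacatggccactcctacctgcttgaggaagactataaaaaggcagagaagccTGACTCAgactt
Il1rn, chr2:24336610-24336859, plus strand: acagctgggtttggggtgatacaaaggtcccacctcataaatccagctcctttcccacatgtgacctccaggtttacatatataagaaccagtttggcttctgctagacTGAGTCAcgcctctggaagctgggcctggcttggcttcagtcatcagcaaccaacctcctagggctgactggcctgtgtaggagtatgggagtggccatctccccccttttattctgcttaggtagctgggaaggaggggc
Il22ra1, chr4:135727909-135728158, plus strand: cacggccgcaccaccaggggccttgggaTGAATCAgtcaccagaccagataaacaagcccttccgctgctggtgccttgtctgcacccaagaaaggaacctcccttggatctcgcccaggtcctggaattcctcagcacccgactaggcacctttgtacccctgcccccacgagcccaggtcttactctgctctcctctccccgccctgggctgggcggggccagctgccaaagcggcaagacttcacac
The matches began 98, 12, 141 and 222 bases before the start in Il11, Il1a, Il1rn and Il22ra1. The window of Il13ra1, the most abundant member, is given with its NF-kB match in capitals, 37 bases before the start.
Il13ra1, chrX:36111858-36112107, plus strand: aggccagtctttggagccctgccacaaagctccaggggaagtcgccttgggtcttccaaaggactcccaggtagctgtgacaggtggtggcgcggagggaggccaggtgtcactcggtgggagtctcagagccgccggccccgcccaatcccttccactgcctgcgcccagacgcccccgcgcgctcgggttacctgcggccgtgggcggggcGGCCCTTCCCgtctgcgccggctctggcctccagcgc
These matches describe letters and not binding sites. The 8 members were picked by their change in these data, and their split by letters was not tested. Of the other members with AP-1 letters, Il15ra rose with USCs medium against aging RGCs by 1.49-fold in edgeR, though not on log2(FPKM + 1). Il13ra2 did not pass, and the rest were too scarce for the test.

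**Figure D3:**
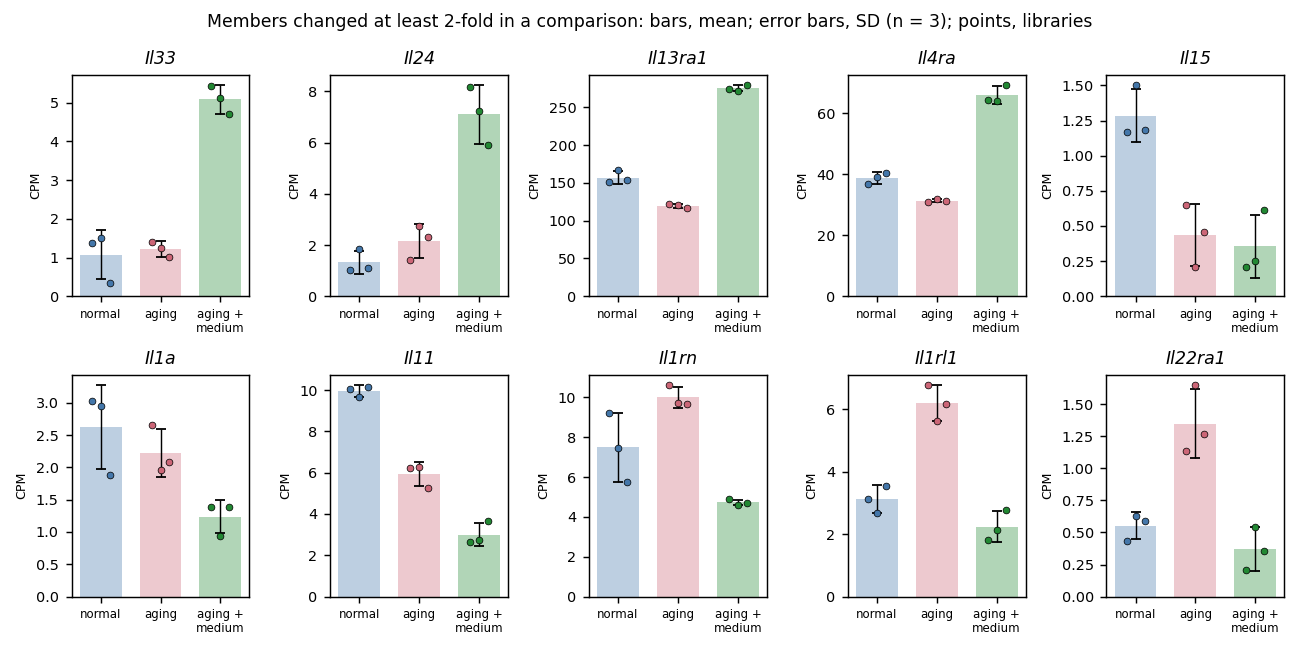
CPM of the 10 members changed at least 2-fold in a comparison, with bars at the mean, error bars at the SD (n = 3) and a point for each library, all axes starting at 0. Il33, Il24, Il13ra1 and Il4ra are highest with USCs medium in all 3 libraries, Il1rl1, Il1rn and Il22ra1 are highest in aging RGCs, and Il11 and Il15 are highest in normal RGCs.

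Among the 9 ligands tested, Il33 showed the largest rise with USCs medium against aging RGCs. IL-33 is a nuclear alarmin of the IL-1 family that signals through ST2, the product of Il1rl1, together with Il1rap. The gene lies at chr19:29925114-29960718 on the plus strand. Its level was 1.39, 1.5 and 0.345 CPM in normal replicates 1 to 3, 1.41, 1.24 and 1.01 CPM in aging RGCs and 5.45, 5.11 and 4.71 CPM with USCs medium. The medium libraries were all above the other 6, while normal and aging RGCs overlapped and normal replicate 3 was the lowest of all. Il33 rose with USCs medium by 4.17-fold against aging RGCs (log2 fold change 2.06, SE 0.281, edgeR adjusted p = 5.11e-07) and by 4.65-fold against normal RGCs (log2 fold change 2.22, SE 0.281, edgeR adjusted p = 9.38e-08). Aging against normal RGCs gave a log2 fold change of 0.16 (SE 0.342, edgeR adjusted p = 0.738).

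Il24 also rose with USCs medium. It encodes an IL-10 family cytokine that binds Il20rb paired with Il20ra or Il22ra1, and lies at chr1:130882074-130887454 on the minus strand. Il24 measured 1.04, 1.84 and 1.09 CPM in normal RGCs, 1.41, 2.73 and 2.33 CPM in aging RGCs and 8.17, 7.25 and 5.89 CPM with USCs medium. The medium libraries again lay above all others. It rose with the medium by 3.28-fold against aging RGCs (log2 fold change 1.71, SE 0.218, edgeR adjusted p = 1.64e-07) and by 5.38-fold against normal RGCs (log2 fold change 2.43, SE 0.232, edgeR adjusted p = 5.19e-10). The rise from normal to aging RGCs was smaller (log2 fold change 0.72, SE 0.272, edgeR adjusted p = 0.0323), with overlapping groups. It no longer passed without normal replicate 1, normal replicate 3, aging replicate 2 or aging replicate 3, with edgeR adjusted p of 0.138, 0.113, 0.191 and 0.0945. Nor did it pass in a fit of the 2 groups alone (edgeR adjusted p = 0.0583) or on log2(FPKM + 1) and log2(FPKM + 0.1) (limma adjusted p = 0.0886 and 0.0766).

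Il11 fell at both steps. IL-11 signals through Il11ra1 and the shared chain Il6st (gp130), and the gene lies at chr7:4772373-4782859 on the minus strand. It measured 10.05, 9.64 and 10.2 CPM in normal RGCs, 6.22, 6.28 and 5.27 CPM in aging RGCs and 2.62, 2.73 and 3.64 CPM with USCs medium, and none of the 3 groups overlapped. The fall was 1.68-fold in aging against normal RGCs (log2 fold change -0.75, SE 0.134, edgeR adjusted p = 3.95e-05) and 1.98-fold with USCs medium against aging RGCs (log2 fold change -0.98, SE 0.159, edgeR adjusted p = 7.27e-06). Medium against normal RGCs gave a log2 fold change of -1.73 (SE 0.148, edgeR adjusted p = 5.69e-11). Its promoter window above was 1 of the 4 with AP-1 letters. Il11ra1 measured 8.49, 7.41 and 8.24 CPM in normal RGCs, 8.81, 6.7 and 9.16 CPM in aging RGCs and 5.45, 6.25 and 6.61 CPM with USCs medium. It fell with USCs medium against aging RGCs (log2 fold change -0.43, SE 0.138, edgeR adjusted p = 0.0103), a call that did not pass without aging replicate 3 (edgeR adjusted p = 0.0717) or medium replicate 1 (0.0588). Against normal RGCs it also fell (log2 fold change -0.40, SE 0.137, edgeR adjusted p = 0.0133), but not without medium replicate 1 (edgeR adjusted p = 0.0703). Reads of Il11ra1 may be shared with its near-identical copy Il11ra2 and with genes that overlap it on the same strand.

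Il15 fell in aging RGCs. IL-15 is presented by Il15ra and signals through Il2rb and Il2rg, and its gene lies at chr8:82331632-82403222 on the minus strand. It measured 1.17, 1.5 and 1.18 CPM in normal RGCs, 0.649, 0.206 and 0.456 CPM in aging RGCs and 0.205, 0.248 and 0.615 CPM with USCs medium. Every normal library lay above every other library, while the aging and medium groups overlapped. The fall was 2.93-fold in aging RGCs (log2 fold change -1.55, SE 0.429, edgeR adjusted p = 0.0039) and 3.57-fold with USCs medium against normal RGCs (log2 fold change -1.83, SE 0.443, edgeR adjusted p = 7.61e-04). Medium against aging RGCs gave -0.29 on the log2 scale (SE 0.54, edgeR adjusted p = 0.684). The aging and medium libraries held no more than 12 counts of Il15 each. Without medium replicate 3 the log2 fold change against normal RGCs was -2.47. Of 9 macrophage markers tested, 7 were also lower in aging than in normal RGCs. Cd68, the most abundant of them, was not, with 38.6 CPM in normal and 41.5 CPM in aging RGCs. The part of such cells in the fall of Il15 was not tested.

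The IL-1 ligands were low. Il1a, which codes for a cell-associated alarmin, lies at chr2:129299610-129309972 on the minus strand. It measured 3.03, 2.96 and 1.87 CPM in normal RGCs, 2.65, 1.96 and 2.08 CPM in aging RGCs and 1.39, 0.943 and 1.38 CPM with USCs medium. The medium libraries lay below the other 6, and normal and aging RGCs overlapped. Il1a fell by 2.12-fold with USCs medium against normal RGCs (log2 fold change -1.09, SE 0.268, edgeR adjusted p = 9.5e-04). Against aging RGCs the fall was 1.8-fold (log2 fold change -0.84, SE 0.278, edgeR adjusted p = 0.0118), and it did not pass without aging replicate 1 (edgeR adjusted p = 0.0667) or without medium replicate 2 (0.0719). Il1b, the secreted inflammasome product, had means of 1.34 ± 0.311, 1.32 ± 0.126 and 0.997 ± 0.178 CPM in normal, aging and medium groups (SD, n = 3), and passed in none of the comparisons, with edgeR adjusted p of 0.934, 0.307 and 0.238 for aging against normal, medium against aging and medium against normal RGCs. The gene Gm14023 overlaps Il1a on the other strand.

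Il18 measured 10.1, 8.77 and 9.72 CPM in normal RGCs, 10.4, 10.6 and 9.62 CPM in aging RGCs and 6.01, 6.0 and 7.99 CPM with USCs medium. It fell with USCs medium against aging RGCs by 1.53-fold (log2 fold change -0.61, SE 0.126, edgeR adjusted p = 1.68e-04) and against normal RGCs by 1.43-fold (edgeR adjusted p = 8.35e-04), with the medium libraries below the other 6. Il34 had 15.2 ± 0.506, 15.2 ± 1.7 and 15.7 ± 1.03 CPM in normal, aging and medium groups, and passed in no comparison. Its medium against aging difference was 0.05 on the log2 scale (SE 0.0923, edgeR adjusted p = 0.698). Il7 had 3.14 ± 0.573, 2.7 ± 0.672 and 2.45 ± 0.319 CPM and did not pass in a comparison (lowest edgeR adjusted p = 0.175, medium against normal RGCs).

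Among receptors, both chains of the type II IL-4 receptor rose with USCs medium after lower values in aging RGCs. This receptor pairs Il4ra, which binds IL-4, with Il13ra1, and transmits both IL-4 and IL-13 through STAT6. Il13ra1, at chrX:36112110-36171259 on the plus strand, measured 151, 167 and 153 CPM in normal RGCs, 122, 121 and 117 CPM in aging RGCs and 274, 272 and 279 CPM with USCs medium, and the 3 groups did not overlap. It fell by 1.31-fold in aging RGCs (log2 fold change -0.39, SE 0.0396, edgeR adjusted p = 3.89e-09). With USCs medium it rose by 2.3-fold against aging RGCs (log2 fold change 1.20, SE 0.0388, edgeR adjusted p = 5.8e-20) and by 1.75-fold against normal RGCs (log2 fold change 0.81, SE 0.0377, edgeR adjusted p = 1.29e-16).

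Il4ra, at chr7:125552120-125579474 on the plus strand, had the same order of groups. It measured 36.8, 39 and 40.5 CPM in normal RGCs, 31, 31.8 and 31.1 CPM in aging RGCs and 64.2, 64.1 and 69.2 CPM with USCs medium, without overlap. It fell by 1.24-fold in aging RGCs (log2 fold change -0.31, SE 0.0588, edgeR adjusted p = 9.17e-05), a call that did not pass on log2(FPKM + 1) (limma adjusted p = 0.152). It rose by 2.1-fold with USCs medium against aging RGCs (log2 fold change 1.07, SE 0.0564, edgeR adjusted p = 3.23e-15) and by 1.7-fold against normal RGCs (log2 fold change 0.77, SE 0.0543, edgeR adjusted p = 1.15e-12). The gene Gm44876 overlaps it on the other strand. Neither ligand, Il4 or Il13, had a count in any library. The decoy chain Il13ra2 had 0.473 ± 0.179, 0.518 ± 0.122 and 0.219 ± 0.145 CPM in normal, aging and medium groups and did not pass (medium against aging RGCs, log2 fold change -1.22, SE 0.589, edgeR adjusted p = 0.0833).

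Il1rl1, which encodes the IL-33 receptor ST2, moved in the opposite order from Il33 with USCs medium. The gene lies at chr1:40429570-40465415 on the plus strand and has both a membrane and a soluble decoy product. It measured 3.12, 2.67 and 3.55 CPM in normal RGCs, 6.76, 5.61 and 6.18 CPM in aging RGCs and 1.8, 2.13 and 2.77 CPM with USCs medium. In CPM the aging libraries lay above the other 6, and normal and medium libraries overlapped. It rose by 1.98-fold in aging RGCs (log2 fold change 0.99, SE 0.178, edgeR adjusted p = 4.09e-05) and fell by 2.76-fold with USCs medium (log2 fold change -1.47, SE 0.189, edgeR adjusted p = 2.02e-07). In FPKM the same libraries gave 2.04, 1.99 and 2.12 in normal RGCs, 3.14, 1.59 and 4.08 in aging RGCs and 0.46, 0.66 and 0.95 with USCs medium, and on log2(FPKM + 1) the rise in aging RGCs did not pass (limma adjusted p = 0.245). The difference between medium and normal RGCs depended on the measure. In FPKM the medium libraries lay below all normal ones, while on counts the fall passed narrowly (log2 fold change -0.48, SE 0.204, edgeR adjusted p = 0.0442). That call was lost without normal replicate 1 or 3, aging replicate 1 or 3, or medium replicate 1 or 2, with edgeR adjusted p between 0.0505 and 0.186, in a fit of the 2 groups alone (0.072) and in DESeq2 (adjusted p = 0.0659). RefSeq gives 2 starts for the gene, a distal and a proximal one, whose windows are shown because the 2 products are known to differ in promoter use. Neither window holds any of the 3 motifs.
Il1rl1 distal, chr1:40429320-40429569, plus strand: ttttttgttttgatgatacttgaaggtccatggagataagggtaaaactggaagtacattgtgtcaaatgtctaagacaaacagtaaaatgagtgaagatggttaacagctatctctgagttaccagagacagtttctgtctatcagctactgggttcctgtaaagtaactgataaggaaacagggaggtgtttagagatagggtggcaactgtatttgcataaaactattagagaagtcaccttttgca
Il1rl1 proximal, chr1:40439379-40439628, plus strand: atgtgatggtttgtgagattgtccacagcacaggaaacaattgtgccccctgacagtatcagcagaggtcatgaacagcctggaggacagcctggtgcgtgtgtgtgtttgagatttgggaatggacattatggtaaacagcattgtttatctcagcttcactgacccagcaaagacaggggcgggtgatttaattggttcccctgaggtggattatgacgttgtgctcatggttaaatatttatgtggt

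The other IL-1 family chains were abundant. Il1rap, the accessory chain shared by the IL-1 and IL-33 receptors, measured 39, 46.7 and 45.6 CPM in normal RGCs, 40.02, 42.2 and 40.4 CPM in aging RGCs and 61.3, 58.4 and 57.6 CPM with USCs medium, and rose with the medium by 1.45-fold against aging RGCs (log2 fold change 0.53, SE 0.0606, edgeR adjusted p = 2.32e-08). Aging against normal RGCs gave -0.09 on the log2 scale (edgeR adjusted p = 0.218), which passed only without normal replicate 1 (edgeR adjusted p = 0.0176). Il1r1 had 125 ± 4.44, 112 ± 0.754 and 144 ± 4.2 CPM in the 3 groups. It fell by 1.11-fold in aging RGCs (log2 fold change -0.16, SE 0.0394, edgeR adjusted p = 0.00174) and rose by 1.28-fold with USCs medium (log2 fold change 0.36, SE 0.0393, edgeR adjusted p = 1.27e-08). Il18rap had 113 ± 3.14, 121 ± 0.565 and 146 ± 1.7 CPM and rose by 1.21-fold with USCs medium against aging RGCs (log2 fold change 0.28, SE 0.0374, edgeR adjusted p = 3.56e-07). Its rise in aging against normal RGCs (log2 fold change 0.09, edgeR adjusted p = 0.0482) was lost when any 1 library other than normal replicate 1 was left out, with edgeR adjusted p up to 0.219, and under each of the 8 other settings tried (adjusted p up to 0.19). The binding chain Il18r1 had at most 2 counts in a library and was not tested.

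The antagonist Il1rn, which blocks Il1r1, was highest in aging RGCs and lowest with USCs medium. It lies at chr2:24336853-24351494 on the plus strand and measured 9.23, 7.46 and 5.77 CPM in normal RGCs, 10.6, 9.73 and 9.67 CPM in aging RGCs and 4.88, 4.61 and 4.71 CPM with USCs medium. In CPM all aging libraries were above, and all medium libraries below, the 3 normal ones. In FPKM normal and aging RGCs overlapped, at 7.14, 5.28 and 4.69 and 11.2, 5.32 and 6.97. Il1rn fell by 2.11-fold with USCs medium against aging RGCs (log2 fold change -1.08, SE 0.147, edgeR adjusted p = 4.97e-07) and by 1.59-fold against normal RGCs (log2 fold change -0.67, SE 0.15, edgeR adjusted p = 3.54e-04). On log2(FPKM + 1) the latter did not pass (limma adjusted p = 0.0946). Its rise in aging RGCs (log2 fold change 0.41, SE 0.136, edgeR adjusted p = 0.0149) was lost without normal replicate 3 (edgeR adjusted p = 0.133) or aging replicate 1 (0.0605), and on log2(FPKM + 1) and log2(FPKM + 0.1) (limma adjusted p = 0.284 and 0.303). Il18bp, the soluble inhibitor of IL-18, had 3.04 ± 0.142, 3.17 ± 0.351 and 3.32 ± 0.993 CPM and did not pass in a comparison (lowest edgeR adjusted p = 0.624).

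Of the IL-10 family receptor chains, Il22ra1 and Il10rb were highest in aging RGCs. Il22ra1 pairs with Il10rb for IL-22 and with Il20rb for IL-20 and IL-24, and lies at chr4:135728172-135752140 on the plus strand. It measured 0.433, 0.63 and 0.592 CPM in normal RGCs, 1.14, 1.65 and 1.27 CPM in aging RGCs and 0.205, 0.546 and 0.358 CPM with USCs medium, and every aging library was above the other 6. It rose by 2.45-fold in aging RGCs (log2 fold change 1.29, SE 0.379, edgeR adjusted p = 0.00613) and fell by 3.59-fold with USCs medium (log2 fold change -1.85, SE 0.413, edgeR adjusted p = 4.29e-04). Il22ra1 was scarce, with 10, 13 and 12 counts in normal RGCs, 21, 32 and 25 in aging RGCs and 4, 11 and 7 with USCs medium. Il10rb measured 19.8, 24.5 and 20.3 CPM in normal RGCs, 29.96, 26.9 and 28.7 CPM in aging RGCs and 22.3, 22.6 and 21.8 CPM with USCs medium. It rose by 1.32-fold in aging RGCs (log2 fold change 0.40, SE 0.0777, edgeR adjusted p = 9.19e-05) and fell by 1.28-fold with USCs medium (log2 fold change -0.36, SE 0.0781, edgeR adjusted p = 3.2e-04). Gm21970 overlaps Il10rb on the same strand. Il20rb had 4.69 ± 0.472, 4.33 ± 0.224 and 4.08 ± 0.318 CPM and did not pass (lowest edgeR adjusted p = 0.276), and Il20ra had at most 2 counts. The rise of Il24 with USCs medium thus stood beside a fall of Il22ra1 and values of Il20rb that did not pass.

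The IL-17 receptor chains moved apart. Il17rd, a chain that dampens FGF signalling, fell at both steps. Its means were 61.2 ± 4.64, 52.5 ± 2.11 and 34.5 ± 2.63 CPM in the normal, aging and medium groups, with a fall in aging RGCs (log2 fold change -0.22, SE 0.0595, edgeR adjusted p = 0.0029) and a further fall with the medium (log2 fold change -0.61, SE 0.0637, edgeR adjusted p = 4.93e-09). The fall in aging RGCs did not pass on log2(FPKM + 1) or log2(FPKM + 0.1) (limma adjusted p = 0.0516 and 0.0571). Il17ra, the shared signalling chain, fell in aging RGCs by 1.19-fold (log2 fold change -0.25, SE 0.055, edgeR adjusted p = 4.74e-04) and rose with USCs medium by 1.17-fold (log2 fold change 0.22, SE 0.0555, edgeR adjusted p = 0.00138). On log2(FPKM + 1) the rise did not pass (limma adjusted p = 0.143). Il17rc had 20.3 ± 0.475, 23.2 ± 0.997 and 21.6 ± 1.78 CPM. Its rise in aging RGCs (log2 fold change 0.19, SE 0.0758, edgeR adjusted p = 0.041) was lost when any of normal replicates 1, 2 and 3, aging replicates 1 and 3 and medium replicate 3 was left out, with edgeR adjusted p up to 0.151. It was also lost in DESeq2 (adjusted p = 0.0809), without TMM factors or without the low-count filter (edgeR adjusted p = 0.0724 and 0.0583), and on log2 FPKM (limma adjusted p up to 0.698). The ligands Il17a, Il17b and Il25 had no count in any library.

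The other chains that passed did so with less than 2-fold changes. Il15ra had 7.44 ± 0.889, 5.66 ± 0.685 and 8.45 ± 0.507 CPM, and rose with USCs medium against aging RGCs (log2 fold change 0.58, SE 0.135, edgeR adjusted p = 7.25e-04), though not on log2(FPKM + 1) (limma adjusted p = 0.294). Its fall in aging RGCs (log2 fold change -0.39, SE 0.136, edgeR adjusted p = 0.0194) did not pass with aging replicate 1, aging replicate 3 or normal replicate 2 left out (edgeR adjusted p = 0.0798, 0.0661 and 0.102), nor on log2 FPKM (limma adjusted p up to 0.234). Il3ra, the binding chain for IL-3, fell in aging RGCs from 4.43 ± 0.434 to 3.12 ± 0.189 CPM (log2 fold change -0.50, SE 0.176, edgeR adjusted p = 0.0200), but not without normal replicate 3 or aging replicate 1 (edgeR adjusted p = 0.0834 and 0.064) or on log2 FPKM (limma adjusted p up to 0.291). Il12rb1, shared by the IL-12 and IL-23 receptors, fell with USCs medium from 16 ± 0.733 to 13.3 ± 2.42 CPM (log2 fold change -0.26, SE 0.107, edgeR adjusted p = 0.0397) with overlapping groups. That call was lost without aging replicate 1 or 3 or medium replicate 1 or 2, with edgeR adjusted p up to 0.254, and in DESeq2 (adjusted p = 0.0713). The common gamma chain Il2rg had 0.815 ± 0.11, 0.68 ± 0.238 and 0.557 ± 0.22 CPM and did not pass, and Il27ra and Il4i1 did not pass either.

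Ligands and chains were then read together as complexes, counting a gene as present at 10 or more counts in every library. Of 26 receptor complexes, 5 had all chains present, namely those for IL-1, IL-33, type II IL-4 and IL-13, IL-11, and IL-17A and IL-17F. In 2 of these, IL-1 and IL-11, a ligand was present as well. In 5 complexes (IL-18, IL-7, both IL-20 and IL-24 receptors, and IL-34) a ligand was present and a chain was not, and in 16 neither condition was met. Chains below the limit included Il7r, Il2rb, Il12rb2 and Il10ra. Il33 stayed outside the count because normal replicate 3 held 7 counts of it. The IL-34 receptor Csf1r, a macrophage marker, fell in aging RGCs (log2 fold change -1.61, SE 0.388, edgeR adjusted p = 0.00111). Il6st, the partner of Il11ra1, had 23.9 ± 0.212, 21.6 ± 0.585 and 26.3 ± 0.465 FPKM in normal, aging and medium groups.

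**Figure D4:**
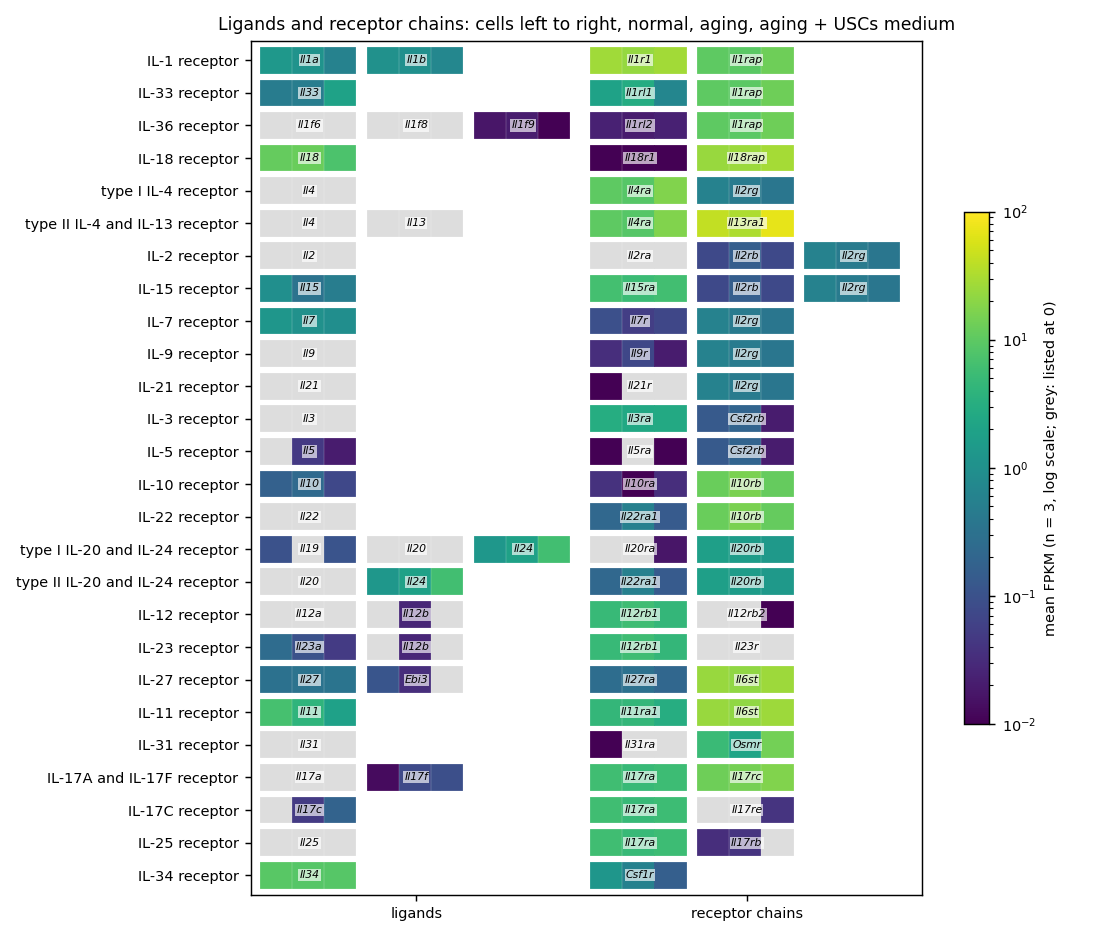
Mean FPKM (n = 3) of the ligands and receptor chains of 26 complexes on a log colour scale, with 3 cells per gene for normal, aging and aging RGCs + USCs medium from left to right, and grey for genes listed at 0. Rows in which every chain is bright include IL-1, IL-33 and type II IL-4 and IL-13 receptors, and Il4 and Il13 themselves are grey.

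Genes that act with interleukin receptors were read from 5 lists, which were chosen with earlier results known, and their counts are a description beside the shares of all genes given above. Calls of list genes were not examined under other settings. Of 13 partner chains and related cytokines, 8 were tested. In aging against normal RGCs none rose and 6 fell, and with USCs medium against aging RGCs 2 rose and 4 fell. Osmr, the oncostatin M receptor that also forms the IL-31 receptor, measured 24.9, 30.2 and 25.9 CPM in normal RGCs, 12, 10.6 and 12.5 CPM in aging RGCs and 80.1, 77.3 and 80.9 CPM with USCs medium. It fell by 2.31-fold in aging RGCs (log2 fold change -1.21, SE 0.0813, edgeR adjusted p = 1.07e-12) and rose by 6.8-fold with USCs medium (log2 fold change 2.77, SE 0.0736, edgeR adjusted p = 1.21e-21), without overlap between groups. Lifr, the LIF receptor, fell with USCs medium (log2 fold change -1.24, SE 0.0846, edgeR adjusted p = 8.66e-13), as did Tslp, a cytokine related to IL-7 (log2 fold change -1.68, SE 0.431, edgeR adjusted p = 0.00169). Tslp was scarce, with 29, 15 and 19 counts in aging RGCs and 6, 10 and 4 with USCs medium.

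Of 26 JAK-STAT genes, 25 were tested. In aging against normal RGCs 4 rose and 10 fell, and with USCs medium against aging RGCs 9 rose and 5 fell. Socs3, a feedback inhibitor of gp130 receptors, measured 35.9 ± 2.13, 26.4 ± 1.45 and 95.6 ± 0.174 CPM in normal, aging and medium groups and rose by 3.62-fold with USCs medium (log2 fold change 1.86, SE 0.0559, edgeR adjusted p = 1.44e-20). Socs2, an inhibitor of growth hormone signalling, fell in aging RGCs (log2 fold change -1.13, SE 0.109, edgeR adjusted p = 1.51e-09) and rose with USCs medium (log2 fold change 1.21, SE 0.109, edgeR adjusted p = 2.83e-10). In the 15 IL-17 signalling genes, 6 rose and 4 fell in aging RGCs, and 4 rose and 6 fell with USCs medium, where Cebpd, a transcription factor, rose by 2.62-fold (log2 fold change 1.39, SE 0.0928, edgeR adjusted p = 5.93e-13).

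In the 18 IL-1 family signalling genes, 3 rose and 2 fell in aging RGCs, and 6 rose and 5 fell with USCs medium. Irak3, an inhibitory kinase of the pathway, rose with USCs medium (log2 fold change 1.40, SE 0.527, edgeR adjusted p = 0.0266), and Peli3, a ubiquitin ligase of the pathway, fell (log2 fold change -1.94, SE 0.405, edgeR adjusted p = 2.01e-04). Both were scarce. Irak3 had 5, 3 and 8 counts in aging RGCs and 13, 23 and 8 with USCs medium. Peli3 had 41, 37 and 35 counts in aging RGCs and 6, 5 and 19 with USCs medium. Of 15 genes for maturation and release of IL-1 family cytokines, 9 were tested. In aging RGCs 2 rose and 3 fell, and with USCs medium 4 rose and 1 fell, each by less than 2-fold.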

How the data were processed

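RNA was enriched with oligo(dT) from 9 cultures, 3 in each of 3 groups named by the labels. The authors deposited, for 22322 genes and each library, an expected count (an estimate of reads per gene, an unnormalized value) and an FPKM value, which accounts for length and depth. The labels' processing notes name the build mm10, while aligner, counting program and strandedness are not given in the sources used. Deposited annotation columns were not used for tests, and no other columns of per-sample values were present. Since 6.92% to 7.38% of expected counts in a library carried decimals, they were rounded. Reads of overlapping genes cannot be told apart without strand.

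Differences were tested with edgeR 4.0.16 in R 4.3.3 (filterByExpr, TMM factors of 0.9562 to 1.034, 1 mean per group over all 9 libraries, 6 residual degrees of freedom, quasi-likelihood F test) over 12145 genes with Benjamini-Hochberg adjustment. A gene passed at an adjusted p under 0.05, and was at least 2-fold changed if the absolute log2 fold change was also 1 or more. CPM used TMM-scaled totals, and SDs are over 3 libraries. The SE of a log2 fold change is approximate. It was taken as the absolute log2 fold change divided by the square root of the F value, since the test gives none itself. The floor of 3 counts and all limits from counts cover counting error only. Alternatives were DESeq2 1.42.0, no TMM factors, no low-count filter, a fit of the 2 compared groups alone, a minimum of 1 CPM in 3 libraries, a block for the replicate number, limma 3.58.1 on log2(FPKM + 1) and log2(FPKM + 0.1), no fold threshold, CPM in place of FPKM for levels, and each library left out in turn. The fit was also run on simulated data with 200 genes changed exactly 2-fold, up or down, and all others unchanged. It recovered 94.5% for aging against normal RGCs (6 false calls among 12034 genes), 90.5% for medium against aging RGCs (12 among 12029) and 91.5% for medium against normal RGCs (17 among 12029). These rates do not cover changes under 2-fold, or data in which 46.5% to 60.5% of genes pass, as here.

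Members and lists were chosen with earlier results of these data known. Named were all members at least 2-fold changed in any comparison, other members that passed, the 5 ligands and 5 receptor chains of highest FPKM, their known partners, and list genes at least 2-fold changed. Roles, complexes and pathway lists came from general knowledge. Gene coordinates are from GENCODE M21 (GRCm38) and promoter windows from RefSeq (GRCm38.p6), where 62 of 79 members matched by symbol and Il15 and Il24 were among those without an entry. Cell counts, viability and staining of the study were not analysed here.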

Additional observations from a re-analysis of the deposited data

How the results depend on the processing

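No call of a member reversed its direction under any alternative. In aging against normal RGCs, limma on log2(FPKM + 1) or log2(FPKM + 0.1) gave 7 members and 5 receptor chains that passed, in place of 16 and 12. Of all 12145 genes in that comparison, 2110 rose and 2548 fell on log2(FPKM + 1), in place of 2861 and 2788 on counts. Members at least 2-fold changed there went from 2 to 0 on log2(FPKM + 1), where 7 passed without a fold threshold, to 1 on log2(FPKM + 0.1), and to 16 with no fold threshold. For medium against aging RGCs the 7 became 4 on log2(FPKM + 1) and 19 with no fold threshold, and for medium against normal RGCs the 5 became 3 and 15. A pseudocount of 1 shrinks fold changes of low genes by construction, and the cause of the other losses was not tested. When single libraries were omitted, 11 to 15, 17 to 19 and 13 to 15 members passed in aging against normal, medium against aging and medium against normal RGCs, as did 2 to 3, 4 to 5 and 6 ligands and 8 to 12, 11 to 13 and 6 to 8 receptor chains, and 2 to 3, 7 to 8 and 4 to 5 members changed at least 2-fold. Under all alternatives 7 of 16, 14 of 19 and 11 of 15 calls held. A fit with a replicate block passed 15, 19 and 15 members. The deviations of libraries with the same number had correlations of -0.0368 to 0.0479, and these numbers were not taken as pairs. Without TMM factors the median log2 fold change of all genes was -0.02, -0.085 and -0.11 in the 3 comparisons, and Il17ra (medium against normal, edgeR adjusted p = 0.0427) and Il17rc (medium against aging, 0.0474) passed as lower. Il15 held up to 12 counts in aging and medium libraries, and its medium against aging difference had an SE of 0.54.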

Other observations

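The length behind each FPKM value varied between libraries for part of the members, a pattern noticed after the values were seen. The ratio of expected count to FPKM, scaled to the median gene of the library, follows the transcript length that the authors' program assigned to a gene. Its highest library exceeded its lowest by over 1.5-fold in 5 of the 21 members with enough counts, by 2.72-fold in Il1rl1, 2.58-fold in Il17rc, 2.11-fold in Il1rn, 1.55-fold in Il15ra and 1.52-fold in Il18bp. Among these 21 members with at least 30 counts and 0.1 FPKM in every library, Il1rl1 was the one whose group means of this ratio, relative to its mean, differed by more than 1.5-fold, beside 0.227% of 10591 genes. Its relative ratios were 0.656, 0.574 and 0.713 in normal RGCs, 0.911, 1.49 and 0.636 in aging RGCs, and 1.56, 1.29 and 1.17 with USCs medium. The medium libraries were above all normal ones, and the aging libraries spread across both. The values were not tested, and the isoforms of Il1rl1 were not counted here. For Il17rc, medium replicate 2 had a relative ratio of 0.471, the lowest of the 9, beside its FPKM of 30.28. Il1rn had relative ratios of 0.704, 1.35 and 1.02 in aging RGCs and 1.49, 0.741 and 0.744 with USCs medium.

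Some macrophage markers differed within the medium group. Lyz2, a myeloid lysozyme, had 45, 20 and 241 counts in medium replicates 1, 2 and 3, and C1qb, a complement chain of macrophages, had 0, 0 and 15. In normal RGCs Lyz2 had 522, 210 and 265 counts, and in aging RGCs 118, 23 and 38. Il15 was also highest in replicate 3 of the medium group, with 12 counts, and the relation was not tested.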
